A study of Mus musculus with 12 samples.

Results

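Expression of 10 genes that restrain MAP kinase signalling was followed across mouse CD8 T cells with and without STAT3. The genes were taken by name: 7 dual-specificity phosphatases (Dusp1, Dusp2, Dusp4, Dusp5, Dusp6, Dusp10 and Dusp16) and 3 genes of the Sprouty and SPRED families (Spry1, Spry2 and Spred1). Each was read from probe sets with exactly 1 gene symbol in the platform annotation, the brightest where there were several. All 10 were among the 9862 genes tested, of 22180 genes with such a probe set, and every group mean of every one of them lay above the brightness limit of 5 on the log2 scale that a gene had to reach in at least 1 group.

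The study compared 4 groups of 3 Affymetrix arrays each: Tc17 STAT3-/-, Tc17 WT, Tc1 STAT3-/- and Tc1 WT. The STAT3-/- cells carried a floxed STAT3 allele and a Cre recombinase driven from Cd4, so that the gene was deleted in developing T cells, and the WT cells kept it. Naive CD8 T cells of both genotypes were sorted from spleen, mixed in equal parts, activated with anti-CD3 (1 µg/ml) and anti-CD28 (3 µg/ml), and parted again by allelic surface markers after 4 days. Tc17 cells received IL-6 and TGF-beta and Tc1 cells received IL-12, for 3 days in each case, with 1 further day in IL-2. All groups therefore shared the activation and the IL-2, and cells of both genotypes shared a culture within each cell type.

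MAP kinases (ERK, p38 and JNK) are switched on by phosphorylation of a threonine and a tyrosine in their activation loop. Dual-specificity phosphatases remove both phosphates, some of them in the nucleus and others in the cytoplasm, and many are induced by the very pathway they shut down. Sprouty and SPRED proteins act further upstream, near the membrane, where they limit the activation of Ras and RAF below surface receptors. In T cells both kinds of inhibitor belong to the feedback that limits signalling from the antigen receptor and from cytokine receptors.

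The arrays of each group are labelled biological 1, biological 2 and technical 2. The technical array was averaged with biological array 2, giving 2 samples per group and 8 in all. Stat3 was lower in both STAT3-/- groups: it read 7.59 to 7.93 on the Tc17 STAT3-/- arrays against 10.38 to 10.72 on the Tc17 WT arrays, and 6.99 to 7.67 on the Tc1 STAT3-/- arrays against 9.77 to 10.13 on the Tc1 WT arrays. Means over 7 CD8 T cell markers were 10.56 to 10.81 on the 12 arrays. Of these 7, only Cd8a was called for STAT3-/- over WT in Tc17, with a log2 change of 0.30 (adjusted p = 0.0446, limma). The technical Tc17 WT array stood apart, with a first principal component score of 44.8 against 25.4 and 25.8 for the biological Tc17 WT arrays (54.4% of the variance), so values without it are given for the called changes and for others it moved past the threshold. The mean over 5 B cell markers was 5.69 to 5.76 on the Tc17 STAT3-/- arrays and 5.22 to 5.31 on the Tc17 WT arrays. On the Tc1 arrays it was 5.52 to 5.65 without STAT3 and 5.49 to 5.53 in WT. Of these 5 genes only Ighm and Cd79b were bright enough to test, and both were higher in Tc17 STAT3-/- cells (log2 changes of 1.77 and 0.78), while Cd79a, Ms4a1 and Pax5 stayed between 2.34 and 4.31 on every array. Of 8 myeloid markers only Cd68 was bright enough to test, and it was lower in Tc17 STAT3-/- cells, with a log2 change of -1.12 (list means of 4.00 to 4.03 there and 4.04 to 4.23 in Tc17 WT). In Tc17 over Tc1, Ighm was lower in WT (-1.35, adjusted p = 3.34e-05, limma) and Cd79b was not called there (0.07), while in STAT3-/- cells Cd79b was higher (0.81) and Cd68 lower (-0.98). Ighm, like Dusp6 and Dusp1, was thus called for STAT3-/- over WT in Tc17 and for Tc17 over Tc1 in WT, in the same directions as those genes. The difference of the genotype changes, Tc17 minus Tc1, was also called for these 3 genes (1.70 for Ighm, adjusted p = 2.60e-04, limma). All 3 comparisons hold the Tc17 WT samples. The part of these markers' cells in the results was not tested. In bulk RNA, fewer cells of a type and less RNA per cell cannot be told apart.

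The promoters of Dusp6, Dusp1 and Spred1 are shown because the 3 genes shared a pattern of expression across the groups, and that of Dusp5 because it held motifs of its own. Each sequence is the 250 bases before the gene's start from RefSeq (build GRCm38.p6), 5′ to 3′ on the gene's strand, in lower case with motif matches in capitals. They lie at chr10:99262981-99263230 (plus strand) for Dusp6, chr17:26508473-26508722 (minus strand) for Dusp1, chr2:117120821-117121070 (plus strand) for Spred1 and chr19:53528895-53529144 (plus strand) for Dusp5.
Dusp6: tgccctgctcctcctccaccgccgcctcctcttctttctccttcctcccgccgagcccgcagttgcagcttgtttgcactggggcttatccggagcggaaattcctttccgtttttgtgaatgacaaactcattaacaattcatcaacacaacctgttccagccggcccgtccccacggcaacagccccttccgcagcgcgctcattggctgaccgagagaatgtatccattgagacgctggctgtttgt
Dusp1: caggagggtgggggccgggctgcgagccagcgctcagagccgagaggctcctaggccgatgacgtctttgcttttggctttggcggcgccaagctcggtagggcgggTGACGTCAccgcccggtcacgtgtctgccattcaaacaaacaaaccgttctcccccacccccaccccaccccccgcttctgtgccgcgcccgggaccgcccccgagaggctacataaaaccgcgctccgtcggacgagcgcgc
Spred1: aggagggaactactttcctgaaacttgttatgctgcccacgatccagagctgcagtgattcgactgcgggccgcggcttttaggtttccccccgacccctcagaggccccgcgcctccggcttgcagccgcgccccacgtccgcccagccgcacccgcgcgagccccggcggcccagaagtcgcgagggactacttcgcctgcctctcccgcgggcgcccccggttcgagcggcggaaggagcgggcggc
Dusp5: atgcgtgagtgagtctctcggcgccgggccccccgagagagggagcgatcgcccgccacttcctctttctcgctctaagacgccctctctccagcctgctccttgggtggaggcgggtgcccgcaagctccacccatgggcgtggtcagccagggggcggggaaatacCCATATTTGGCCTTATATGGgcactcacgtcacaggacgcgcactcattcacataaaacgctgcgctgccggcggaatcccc

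Promoters of 9 of the 10 genes were matched by symbol, and Dusp4 was named only. They were searched on both strands for 5 motifs. The STAT palindrome TTCNNNGAA, to which STAT dimers bind, was in 0 of the 9 promoters, against 7.02% of 32851 promoters of the same length. The capitals in Dusp1 mark a full cyclic AMP response element, TGACGTCA, the site of the CREB and ATF factors, at 143 to 136 bases before the start, and 1.55% of all promoters hold one. The capitals in Dusp5 mark 2 adjacent CArG boxes, the sites of serum response factor, at 82 to 73 and 72 to 63 bases before the start, and 1.47% of all promoters hold at least 1. Neither the AP-1 site TGANTCA (6.75% of all promoters) nor the ETS site CCGGAAG (6.91%) was in any of the 9. The search covered these letters in these windows and describes the sequence only.

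In Tc17 cells, 4 of the 10 genes were higher without STAT3 and 0 were lower. Dusp6 rose 3.73-fold and Dusp1 rose 2.13-fold, and Dusp2 and Spred1 rose by 1.57-fold and 1.45-fold. The other 6 genes did not pass the test, which was limma's moderated, two-sided test, with a threshold of 0.05 on p-values adjusted by Benjamini-Hochberg across the genes tested. The share of all genes called was 18.2% higher and 6.83% lower, and the median log2 change was 0.36 over the 10 genes and 0.11 over all genes tested. The balance of all calls depended on the scaling: 72.7% of them were higher on the deposited scale and 49.4% (1085 higher, 1110 lower) with the median over tested genes set equal on every array, with 54.7% by cyclic loess and 60.2% by quantile normalization. With the medians set equal the same 4 genes were called, with log2 changes of 1.78 for Dusp6, 0.97 for Dusp1, 0.53 for Dusp2 and 0.41 for Spred1.

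**Figure D1:**
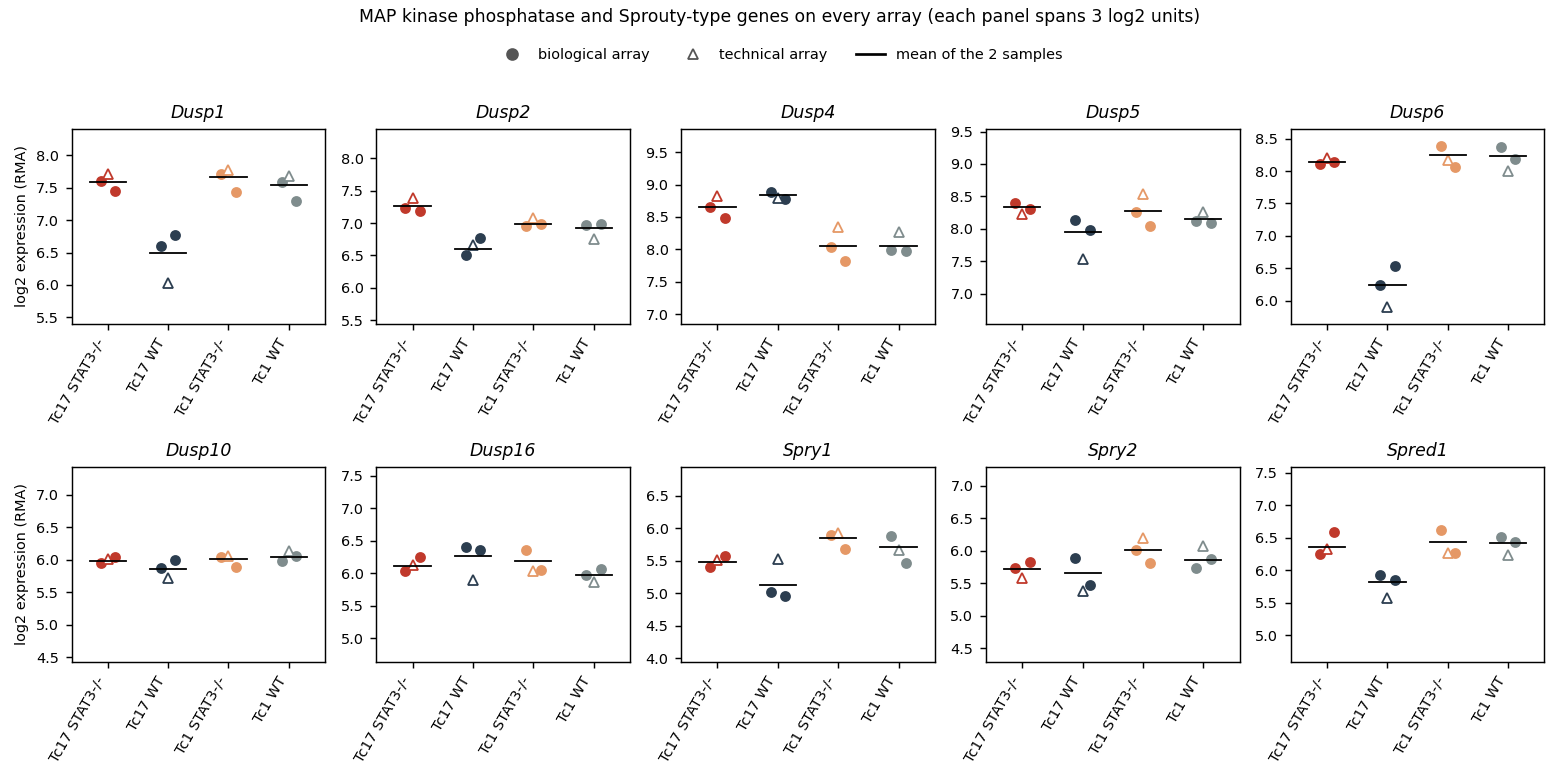
The log2 expression of each of the 10 genes (vertical axis) is plotted for every array in Tc17 STAT3-/-, Tc17 WT, Tc1 STAT3-/- and Tc1 WT cells, with filled circles for biological arrays, open triangles for technical arrays and a line at the mean of the 2 samples. Each panel spans the same range of log2 units. The 3 Tc17 WT arrays lie below all others for Dusp6, Dusp1 and Spred1, and the 6 Tc17 arrays lie above the 6 Tc1 arrays for Dusp4.

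Dusp6 (MKP-3) is a cytoplasmic phosphatase with a strong preference for ERK, and is itself induced by ERK signalling. It read 8.11, 8.13 and 8.20 on the Tc17 STAT3-/- arrays (biological 1, biological 2 and technical, the order used throughout), against 6.25, 6.54 and 5.90 on the Tc17 WT arrays. In Tc1 cells it read 8.39, 8.06 and 8.17 on the STAT3-/- arrays and 8.37, 8.18 and 8.01 on the WT arrays. The Tc17 WT arrays were low and the 9 others lay together, with no overlap between the Tc17 genotypes. The log2 change in Tc17 was 1.90 ± 0.12 (SE from limma, n = 2 samples per group, adjusted p = 1.96e-05), and 17 of the genes tested had a larger one. Without the technical Tc17 WT array it was 1.74. A second, dimmer probe set for Dusp6 read 2.74 to 3.57 on all arrays, below the brightness limit, and averaging it with the first gave a log2 change of 0.85 (adjusted p = 9.30e-04).

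Dusp1 (MKP-1) is a nuclear phosphatase, rapidly induced by many stimuli, that acts on p38 and JNK and also on ERK. It read 7.60, 7.44 and 7.72 on the Tc17 STAT3-/- arrays, against 6.59, 6.77 and 6.02 on the Tc17 WT arrays. In Tc1 cells the readings were 7.71, 7.43 and 7.78 without STAT3 and 7.58, 7.29 and 7.67 in WT. As for Dusp6, the Tc17 WT arrays lay below every other array, with the technical one lowest. The log2 change in Tc17 was 1.09 ± 0.10 (adjusted p = 1.45e-04, limma), and 0.91 without the technical Tc17 WT array. On the technical arrays alone the difference was 1.69, and on the biological arrays 0.84.

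Dusp2 (PAC-1) is a nuclear phosphatase of activated lymphocytes. It read 7.23, 7.18 and 7.39 on the Tc17 STAT3-/- arrays and 6.51, 6.76 and 6.65 on the Tc17 WT arrays. In Tc1 cells it read 6.95, 6.99 and 7.07 without STAT3 and 6.97, 6.98 and 6.76 in WT. The Tc17 genotypes did not overlap, the Tc1 arrays lay between them, and the highest Tc17 WT array, at 6.76, met the lowest Tc1 WT array. The log2 change in Tc17 was 0.65 ± 0.10 (adjusted p = 0.00233, limma), and 0.62 without the technical Tc17 WT array. Unlike Dusp6 and Dusp1, Dusp2 had its highest group mean in Tc17 STAT3-/- cells, at 7.26 ± 0.04 (SD, n = 2), with Tc1 STAT3-/- next at 6.99 ± 0.05. That gap of 0.27 did not pass the test (adjusted p = 0.340, limma).

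Spred1 holds Ras in check by bringing the GTPase-activating protein neurofibromin to the membrane. It read 6.25, 6.59 and 6.32 on the Tc17 STAT3-/- arrays and 5.93, 5.86 and 5.56 on the Tc17 WT arrays. The Tc1 arrays read 6.61, 6.26 and 6.27 without STAT3 and 6.51, 6.43 and 6.24 in WT. As for Dusp6 and Dusp1, the Tc17 WT arrays lay below the 9 others, here by a smaller distance. The log2 change in Tc17 was 0.53 ± 0.14 (adjusted p = 0.0258, limma), and 0.46 (adjusted p = 0.0333) without the technical Tc17 WT array. The adjusted p was 0.0616 and 0.170 when 1 or the other Tc17 STAT3-/- sample was left out, 0.123 without Tc17 WT sample 2, and 0.0532 with no brightness limit. It was called under the other 20 of 24 alternatives.

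Spry1 and Spry2, inhibitors of Ras and RAF activation, did not pass the test in Tc17. Spry1 read 5.41, 5.57 and 5.51 on the Tc17 STAT3-/- arrays and 5.01, 4.96 and 5.53 on the Tc17 WT arrays, so that only the technical Tc17 WT array overlapped the STAT3-/- range. Its log2 change was 0.35 ± 0.13 (adjusted p = 0.0811, limma), and 0.49 (adjusted p = 0.0150) without the technical Tc17 WT array. Spry2 read 5.73, 5.82 and 5.59 on the Tc17 STAT3-/- arrays and 5.89, 5.48 and 5.38 on the Tc17 WT arrays, which overlapped. Its 95% interval of the log2 change, -0.28 to 0.39, covers changes either way.

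Dusp5, a nuclear phosphatase specific for ERK, read 8.39, 8.31 and 8.23 on the Tc17 STAT3-/- arrays and 8.14, 7.99 and 7.53 on the Tc17 WT arrays. The genotypes did not overlap, but the log2 change of 0.38 ± 0.13 missed the threshold (adjusted p = 0.0542, limma). It was 0.57 (adjusted p = 0.00613) without Tc17 WT sample 1 and 0.19 (adjusted p = 0.211) without Tc17 WT sample 2, and it was called under 7 of 24 alternatives. Dusp10 (MKP-5) and Dusp16 (MKP-7), which act mainly on p38 and JNK, showed changes of 0.12 (95% interval -0.08 to 0.33) and -0.15 (-0.45 to 0.15). Dusp10 read 5.95, 6.04 and 6.01 without STAT3 and 5.87, 5.99 and 5.72 in WT Tc17 cells, and Dusp16 read 6.03, 6.25 and 6.13 without STAT3 and 6.40, 6.35 and 5.89 in WT. Both overlapped between the genotypes. Dusp4 (MKP-2), a nuclear phosphatase of ERK and JNK, read 8.65, 8.49 and 8.83 without STAT3 and 8.88, 8.78 and 8.80 in WT, with a change of -0.18 ± 0.09 (adjusted p = 0.172, limma).

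Counted by array, 5 of the 10 genes (Dusp1, Dusp2, Dusp5, Dusp6 and Spred1) had all 3 Tc17 STAT3-/- arrays above all 3 Tc17 WT arrays, as did 33.6% of all genes tested. Dusp1, Dusp6 and Spred1 had the 3 Tc17 WT arrays below all 9 others, as did 18.7% of all genes. These array patterns were chosen after the values were seen.

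**Figure D2:**
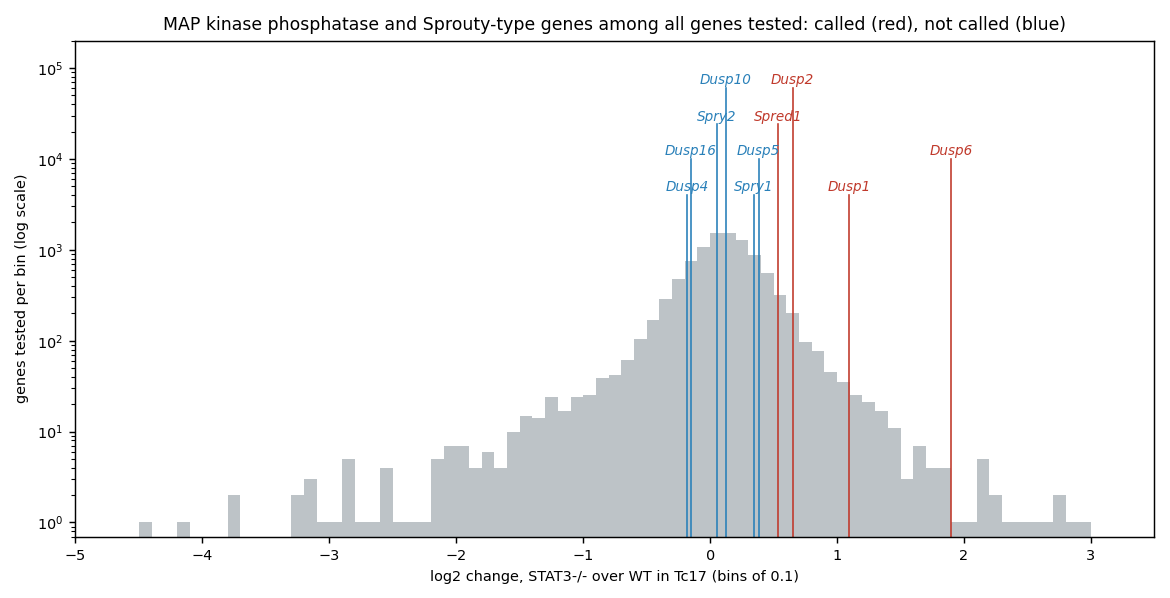
Grey bars count the genes tested (log scale) by their log2 change, STAT3-/- over WT in Tc17 cells, in bins of 0.1, and labelled lines mark the 10 genes, red where called and blue where not. Dusp6 at 1.90 and Dusp1 at 1.09 lie in the right-hand tail, and the 6 genes not called lie between -0.18 and 0.38.

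In Tc1 cells 0 of the 10 genes passed the test for STAT3-/- over WT, with every adjusted p at 0.998 (limma). Of all genes tested, 0.0203% were higher and 0.0406% lower there, 6 genes in all, and 370 had an unadjusted p under 0.05. Dusp6 changed by 0.02, with a 95% interval of -0.26 to 0.30, and Spred1 by 0.01 (-0.31 to 0.34). Dusp1 changed by 0.12 (-0.10 to 0.35), and whether these changes differ from those in Tc17 is given by the test of the difference below. Dusp16 had the largest change of the 10 in Tc1, 0.23 (-0.08 to 0.53), from readings of 6.35, 6.05 and 6.03 without STAT3 and 5.97, 6.07 and 5.87 in WT, which overlapped. It rested on 1 sample, being 0.07 without Tc1 STAT3-/- sample 1 and 0.38 without sample 2.

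The difference between the genotype changes, Tc17 minus Tc1, was itself tested. It was called for 3 of the 10 genes, all with the larger change in Tc17: Dusp6 by 1.88 ± 0.18 (adjusted p = 5.06e-04, limma), Dusp1 by 0.97 ± 0.14 (adjusted p = 0.00553) and Dusp2 by 0.58 ± 0.14 (adjusted p = 0.0441). Without the technical Tc17 WT array the 3 differences were 1.72, 0.79 and 0.55, each still called. Over all genes tested 4.48% were called with a positive difference and 2.37% with a negative one, of which 65.4% of calls were positive on the deposited scale and 42.2% with the median over tested genes set equal (47.0% by cyclic loess, 53.0% by quantile normalization). With the medians set equal the Dusp2 difference was 0.47 (adjusted p = 0.139), and its call was also lost without any 1 sample of Tc1 STAT3-/-, Tc1 WT or Tc17 STAT3-/- (adjusted p of 0.0822 to 0.173). It was called under 12 of 23 alternatives. The difference for Spred1, 0.52 ± 0.20, did not pass (adjusted p = 0.157), so its change in Tc17 is not shown to differ from that in Tc1.

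**Figure D3:**
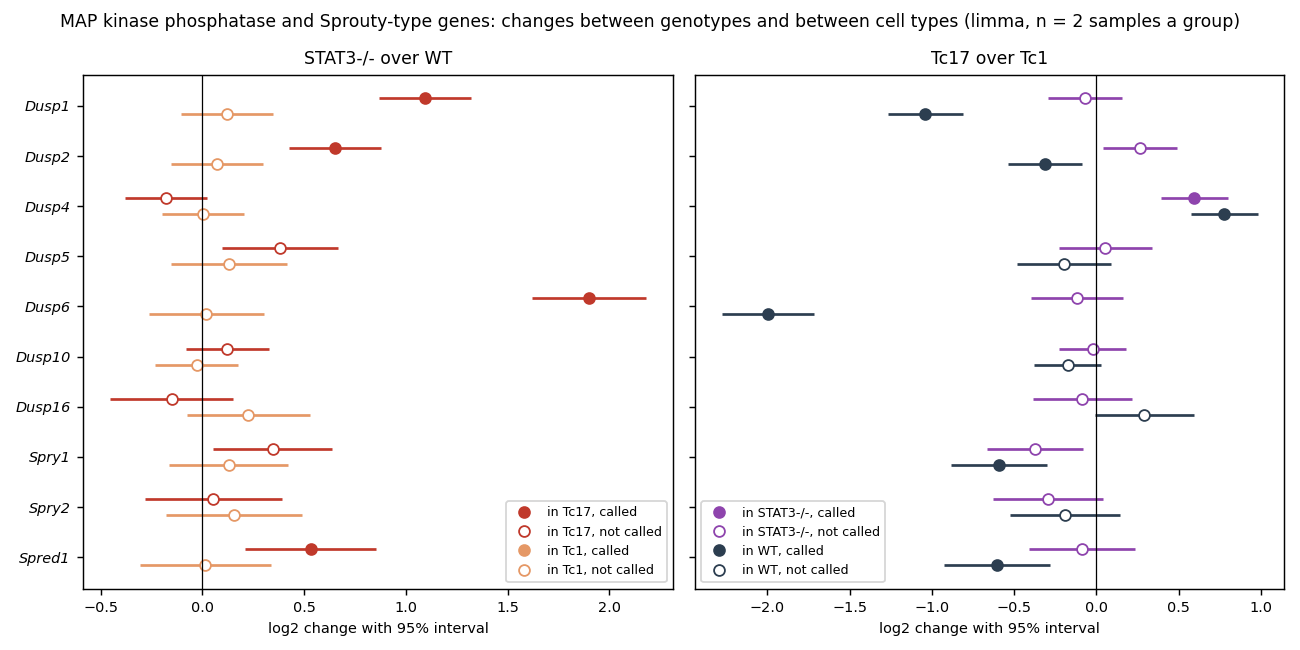
Log2 changes of the 10 genes with 95% intervals from limma (n = 2 samples per group) are drawn for STAT3-/- over WT in Tc17 and Tc1 cells on the left and for Tc17 over Tc1 in STAT3-/- and WT cells on the right, filled where called. On the left Dusp6 stands at 1.90 in Tc17 and 0.02 in Tc1, and on the right at -0.12 in STAT3-/- and -1.997 in WT.

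Between the cell types in WT, 5 of the 10 genes were lower and 1 was higher in Tc17 than in Tc1. This comparison shares its Tc17 WT samples with the genotype comparison in Tc17, so a low Tc17 WT value enters both. Over all genes, 7.01% were higher and 18.0% lower in Tc17 WT cells, and 28.0% of the calls were higher on the deposited scale, against 50.5% with the median over tested genes set equal, 46.6% by cyclic loess and 39.9% by quantile normalization. The median log2 change was -0.26 over the 10 genes and -0.10 over all genes tested.

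Dusp6 fell by 1.997 ± 0.12 on the log2 scale in Tc17 WT relative to Tc1 WT cells (3.99 times lower, adjusted p = 1.45e-05, limma), and 19 of the genes tested had a larger fall. Dusp1 fell by 1.04 ± 0.10 (adjusted p = 1.92e-04). Without the technical Tc17 WT array these changes were -1.84 for Dusp6, -0.85 for Dusp1, -0.53 for Spred1 and -0.73 for Spry1, which were all called. Spred1 fell by 0.61 ± 0.14 (adjusted p = 0.0155) and Spry1 by 0.59 ± 0.13 (adjusted p = 0.0116). The Spry1 arrays read 5.01, 4.96 and 5.53 in Tc17 WT and 5.88, 5.46 and 5.66 in Tc1 WT, with an overlap made by the technical Tc17 WT array alone. Both calls were lost without Tc1 WT sample 1 (adjusted p = 0.103 for Spred1 and 0.0894 for Spry1), and that of Spred1 also without Tc17 WT sample 2 (adjusted p = 0.0810). Dusp2 fell by 0.31 ± 0.10, at an adjusted p of 0.0482 that was 0.0668 without the technical Tc17 WT array and reached 0.258 with the median over tested genes set equal. It was called under 8 of 24 alternatives.

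Dusp4 was the 1 gene of the 10 that was higher in Tc17 than in Tc1 cells, and it was so in both genotypes. Its Tc17 arrays read 8.65, 8.49 and 8.83 without STAT3 and 8.88, 8.78 and 8.80 in WT, and its Tc1 arrays read 8.03, 7.83 and 8.34 without STAT3 and 7.99, 7.98 and 8.26 in WT. All 6 Tc17 arrays lay above all 6 Tc1 arrays, a pattern held by 1.51% of the genes tested and again chosen after the values were seen. The log2 change was 0.78 ± 0.09 in WT cells (adjusted p = 5.64e-04, limma), or 0.77 without the technical Tc17 WT array, and 0.59 ± 0.09 in STAT3-/- cells (adjusted p = 0.00946). Leaving out any 1 of the 4 STAT3-/- samples took the call in STAT3-/- cells away (adjusted p of 0.0517 to 0.121). The difference between the genotype changes in Tc17 and Tc1, equal to the difference between these cell type changes, was -0.18 ± 0.13 and did not pass (adjusted p = 0.409).

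In STAT3-/- cells Dusp4 was the only gene of the 10 called between Tc17 and Tc1, where 1.05% of all genes were higher and 1.01% lower in Tc17. Dusp6 differed there by -0.12 (95% interval -0.40 to 0.16) and Dusp1 by -0.07 (-0.29 to 0.16). Spry1 was 0.38 lower without passing the test (adjusted p = 0.286, limma), with 5.41, 5.57 and 5.51 on the Tc17 STAT3-/- arrays and 5.89, 5.69 and 5.93 on the Tc1 STAT3-/- arrays, which did not overlap. Spry2 read 5.73, 5.82 and 5.59 in Tc17 STAT3-/- and 6.02, 5.81 and 6.19 in Tc1 STAT3-/- cells, with a change of -0.29 (-0.63 to 0.04).

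The order of the group means separated the genes. For Dusp6 it ran Tc1 STAT3-/- (8.25), Tc1 WT (8.23), Tc17 STAT3-/- (8.14) and Tc17 WT (6.24), with a last step of 1.90 that passed the test. The step between both Tc1 groups did not pass it, and that between Tc1 WT and Tc17 STAT3-/- was not among the comparisons. Dusp1 and Spred1 likewise had 3 groups together, within 0.12 for Dusp1 and 0.09 for Spred1, and Tc17 WT below them. For Dusp4 the step lay between the cell types, with 8.83 in Tc17 WT and 8.65 in Tc17 STAT3-/- cells and 8.06 in both Tc1 groups. For Dusp10 the 4 means spanned 0.17, and for Dusp16, Spry2 and Dusp5 they spanned 0.29, 0.35 and 0.38, with 0 of the 5 comparisons called for these 4 genes on the deposited scale with all arrays. For Dusp16, Tc17 over Tc1 in WT was 0.29 (adjusted p = 0.137, limma), but it was called without the technical Tc17 WT array (0.41, adjusted p = 0.0291) and with the median over tested genes set equal (0.41, adjusted p = 0.0269). Its arrays read 6.40, 6.35 and 5.89 in Tc17 WT and 5.97, 6.07 and 5.87 in Tc1 WT, where the technical Tc17 WT array alone overlapped.

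**Figure D4:**
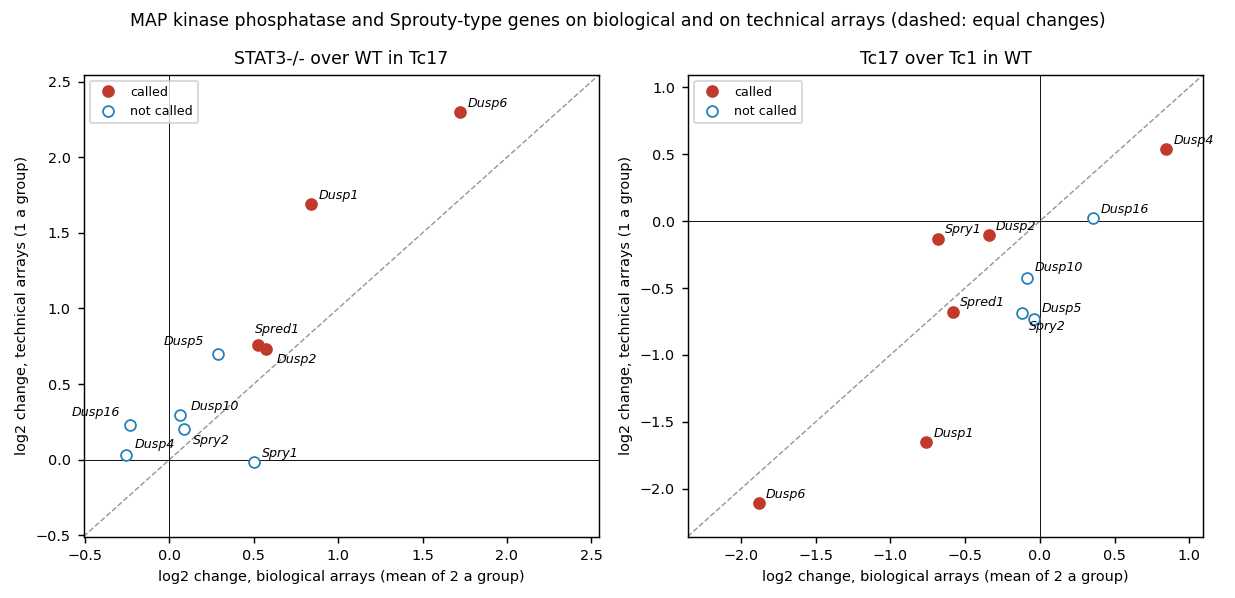
Each of the 10 genes is placed by its log2 change on the biological arrays (horizontal axis, mean of 2 per group) and on the technical arrays (vertical axis, 1 per group), for STAT3-/- over WT in Tc17 cells on the left and Tc17 over Tc1 in WT cells on the right, and the dashed line marks equal changes. Dusp6 and Dusp1 have the same direction on both kinds of array, whereas Spry1 in the left panel is at 0.50 on the biological and -0.02 on the technical arrays.

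Dusp6 had the widest range of group means of the 10 (2.02). Over the 8 samples, the tested genes outside the list with the profile most like it were Nsun5 (Pearson r = 0.996), Cobll1 (0.996) and Pkp4 (0.995), and within the list Dusp1 (0.990) and Spred1 (0.934). The r was taken over samples, with the technical arrays averaged in. By array, Nsun5 read 5.80 to 6.78 in Tc17 WT and 6.68 to 7.12 in Tc1 STAT3-/- cells, which overlapped, unlike Dusp6. Cobll1 averaged 6.26 in Tc17 STAT3-/- cells, 4.86 in Tc17 WT, 6.32 in Tc1 STAT3-/- and 6.24 in Tc1 WT. These values describe 8 samples from 4 groups whose arrays share a processing, and with 1 group apart from 3 any gene of that shape gives a high r.

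Genes of the MAP kinase pathways outside the 10 were read from 7 lists. In the Ras to ERK list, 5 of 17 tested genes were higher and 2 were lower in Tc17 STAT3-/- than in Tc17 WT cells, against 18.2% higher and 6.83% lower over all genes tested. The rise was largest for Rasgrp1, the exchange factor that loads Ras with GTP below the antigen receptor, at 1.08 (adjusted p = 6.91e-05, limma). The Ras GTPase-activating genes Rasa3 (0.75) and Rasa1 (0.57) were also higher, whereas 2 others, Rasa2 (-0.39) and Nf1 (-0.42), were lower. The list's median change was -0.08, against 0.11 over all genes tested. In Tc17 over Tc1 WT cells the counts were 1 higher and 4 lower (7.01% and 18.0% over all genes), with Rasgrp1 at -0.89, Rasa3 at -0.86, Ptpn11 at -0.36 and Nf1 at 0.41.

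Among genes induced by ERK signalling, 4 of 12 were higher and 2 lower in Tc17 cells without STAT3 (18.2% and 6.83% over all genes tested). Phlda1 rose by 1.498 (adjusted p = 4.45e-04, limma), Etv5, an ETS factor, by 0.97 (adjusted p = 1.83e-04) and Hbegf, an EGF receptor ligand, by 0.71 (adjusted p = 0.00136). Phlda1 averaged 6.37 in Tc17 STAT3-/- and 4.87 in Tc17 WT cells, and Etv5 averaged 5.96 and 4.99, so both passed the brightness limit through the groups where they were higher. The early genes Ier3 (-0.97) and Junb (-0.64) fell, and Egr1, at 0.02, did not pass the test (adjusted p = 0.913). The remaining gene called higher was the early gene Egr3, which averaged 5.86 in Tc17 STAT3-/- and 5.29 in Tc17 WT cells. Among other early genes, in the same order, Ier2 averaged 7.23 and 6.94, Egr2 5.21 and 5.66, and Fosb 4.96 and 5.08. In Tc17 over Tc1 WT cells, where 7.01% of all genes were higher and 18.0% lower, 3 were higher (Egr2 at 0.71, Junb at 0.51 and Ier3 at 0.49) and 3 lower (Etv5 at -1.44, Hbegf at -0.82 and Phlda1 at -0.55). Egr2 passed the brightness limit through the Tc17 groups alone. Its mean in Tc1 WT cells, the reference here, lay just below that limit. Etv5 was also lower in Tc17 than in Tc1 cells without STAT3, by a log2 change of -0.99 (adjusted p = 9.09e-04). Dusp6 was not called in that comparison.

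**Figure D5:**
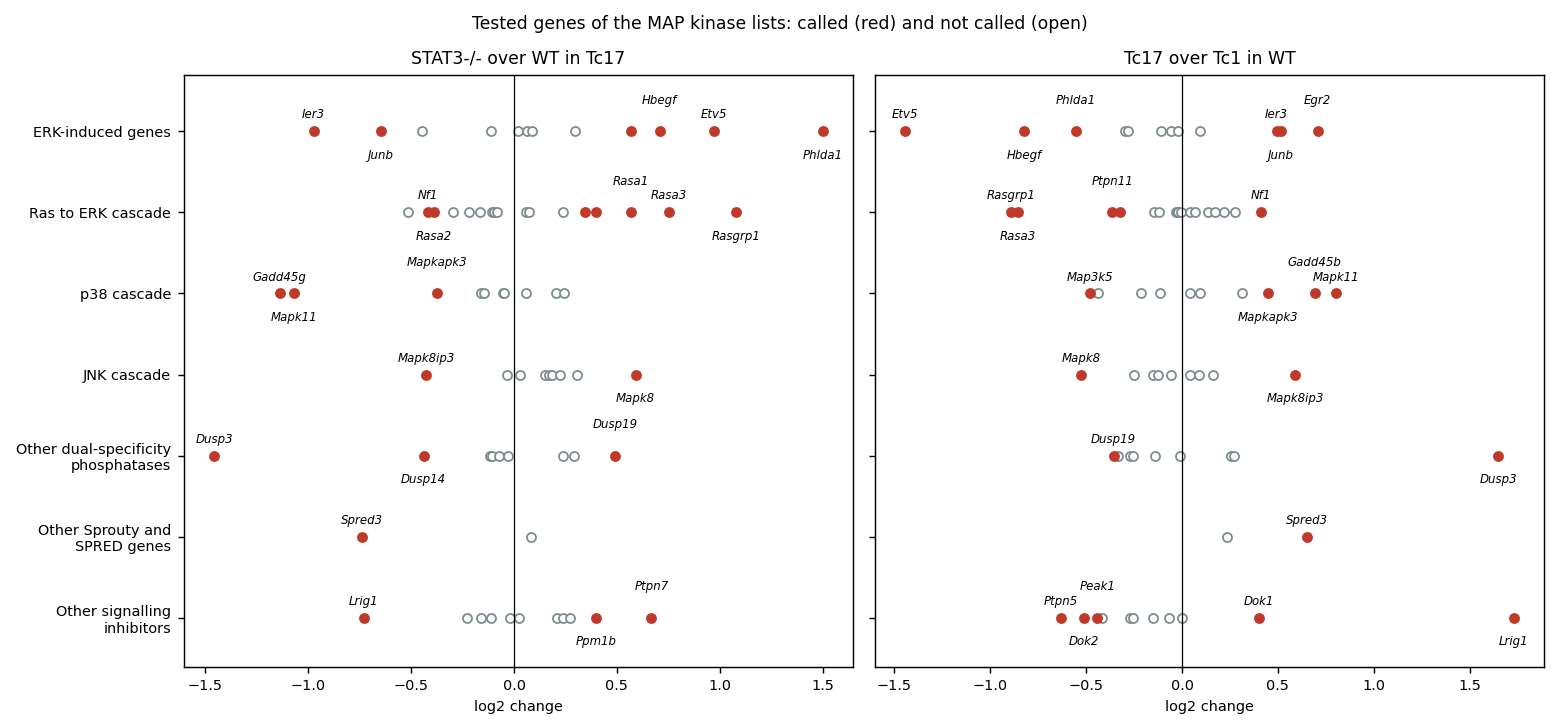
Each point is a tested gene of a MAP kinase list, placed by its log2 change for STAT3-/- over WT in Tc17 cells (left) and for Tc17 over Tc1 in WT cells (right), red where called and open where not, with up to 3 called genes named each way. In the p38 list the 3 called genes on the left lie below 0. Dusp3, which passed the brightness limit through Tc17 WT alone, lies at -1.46 on the left and 1.65 on the right.

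In the p38 list, 0 of 10 tested genes were higher and 3 were lower in Tc17 STAT3-/- than in Tc17 WT cells, against 18.2% and 6.83% of all genes. The 3 were Gadd45g, an activator of the kinases above p38 and JNK, at -1.14 (adjusted p = 0.00165, limma), Mapk11, the beta form of p38, at -1.07 (adjusted p = 2.33e-04), and Mapkapk3, a kinase below p38, at -0.37. In Tc17 over Tc1 WT cells (7.01% of all genes higher, 18.0% lower) 3 of the 10 were higher (Mapk11 at 0.80, Gadd45b at 0.69 and Mapkapk3 at 0.45) and Map3k5 was lower, at -0.48. In the JNK list 1 of 9 was higher in Tc17 STAT3-/- than in Tc17 WT cells, Mapk8 (JNK1) at 0.59, and 1 was lower, the scaffold gene Mapk8ip3 at -0.43, against the 18.2% and 6.83% above. The directions were turned in Tc17 over Tc1 WT cells, with Mapk8 at -0.53 and Mapk8ip3 at 0.59.

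Of 9 tested dual-specificity phosphatases outside the 10, 1 was higher and 2 were lower in Tc17 cells without STAT3, against 18.2% and 6.83% of all genes. Dusp3 (VHR), a small phosphatase that acts on ERK and JNK, averaged 4.30 in Tc17 STAT3-/-, 5.75 in Tc17 WT, 4.03 in Tc1 STAT3-/- and 4.10 in Tc1 WT cells. It passed the brightness limit through Tc17 WT alone, and changed by -1.46 for STAT3-/- over WT in Tc17 (adjusted p = 1.21e-05, limma) and by 1.65 for Tc17 over Tc1 in WT (adjusted p = 6.16e-06). Dusp14 was lower (-0.44) and Dusp19 higher (0.49) in Tc17 cells without STAT3. For Tc17 over Tc1 in WT, 1 of the 9 was higher (Dusp3) and 1 lower (Dusp19 at -0.36, adjusted p = 0.0395). The shares over all genes were 7.01% and 18.0%. Of the 2 other Sprouty and SPRED genes tested, Spred3 was lower (-0.74, adjusted p = 0.0101), opposite in sign to Spred1, and Spred2 was not called (0.08, adjusted p = 0.685). Spred3 averaged 5.004 in Tc17 STAT3-/- and 5.74 in Tc17 WT cells. It was the 1 gene of these 2 called for Tc17 over Tc1 in WT, at 0.65 (adjusted p = 0.0170, limma).

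Of 11 other inhibitors of MAP kinase or receptor signalling, 2 were higher and 1 lower in Tc17 cells without STAT3, against 18.2% and 6.83% of all genes. Ptpn7 (HePTP), a tyrosine phosphatase of ERK and p38 in blood cells, was higher by 0.67 (adjusted p = 0.00913, limma), and the serine and threonine phosphatase gene Ppm1b by 0.40. Lrig1, which lowers growth factor receptor levels, was lower, at -0.73 (adjusted p = 0.00396). Between the cell types in WT, 2 of the 11 were higher and 3 lower (7.01% and 18.0% of all genes): Lrig1 was higher in Tc17, by 1.73, and Dok1 by 0.40, while Ptpn5 (-0.63), Dok2 (-0.51) and Peak1 (-0.44) were lower. In Tc1 cells, 0 genes of the 7 lists were called for STAT3-/- over WT.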

How the data were processed

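Total RNA of CD8 T cells was labelled with biotin and hybridised to 12 Affymetrix arrays. The authors deposited 1 log2 value per probe set and array, made with RMA and Partek per the submitters' processing notes. The sources used here give no versions and no genome build. RMA subtracts background, equalises the arrays and combines the probes of a set, which narrows differences near background. That the scale is log2 follows from the range of the values.

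Of 41345 probe sets, 23521 had exactly 1 symbol in the platform annotation, and the brightest was kept for each of 22180 genes. The 9862 genes with a group mean of at least 5 were tested. No level of 1 gene was set against that of another. The technical array of each group was averaged with biological array 2, whose number it shares. The SD of the difference over tested genes was 0.21 to 0.35 between those arrays and 0.14 to 0.19 between biological arrays. Between the technical array and biological array 1 it was 0.20 to 0.37. In both STAT3-/- groups the technical array was slightly nearer to biological array 1, so these values do not show which sample it repeats. Cells of both genotypes shared a culture within each cell type, so the genotypes are paired by design. Nothing in the labels says which samples shared a culture or an animal, so the main fit does not model this pairing. Nor do the labels say which sample the technical array repeats. The p-values thus measure the spread between these samples only, which may be technical. For arrays, the number of samples limits the precision.

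A model of 4 group means over the 8 samples was fitted in R 4.3.3 by limma 3.58.1 (lmFit, then contrasts.fit and eBayes; 4 residual and 4.87 prior degrees of freedom), with 5 contrasts and Benjamini-Hochberg adjusted p-values over all genes tested, called under 0.05. Plots were made in Python 3.11.15 (matplotlib 3.10.9). All 10 genes and, from each list, up to 3 called genes each way with the largest changes were named. Exceptions named beside them and the array patterns were chosen after their values were seen. The exceptions were Egr1, Egr3, Ier2, Fosb, Spred2, Egr2 in Tc17 cells by genotype, and Etv5 in STAT3-/- cells. The genes and lists were chosen with earlier results of these data known. The alternatives were other uses of the technical arrays, scalings, brightness limits, probe set rules and limma options, a replicate block, and leaving out each sample.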

Additional observations from a re-analysis of the deposited data

Results flagged for a closer look

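The change of Dusp6, Dusp1 and Dusp2 between the genotypes differed between Tc17 and Tc1 cells by the test of the difference itself in limma. The difference, Tc17 minus Tc1, was 1.88 for Dusp6 (adjusted p = 5.06e-04), 0.97 for Dusp1 (adjusted p = 0.00553) and 0.58 for Dusp2 (adjusted p = 0.0441) on the log2 scale. Over all genes tested 4.48% were called with a positive difference. The Dusp2 difference was called under 12 of 23 alternatives, and those of Dusp6 and Dusp1 under all 23. For Dusp6 and Dusp1 the 3 Tc17 WT arrays lay apart from the 9 others. For Dusp2 the Tc17 STAT3-/- arrays were also higher than the Tc1 arrays, by 0.27 on the log2 scale over Tc1 STAT3-/- cells, which did not pass the test (adjusted p = 0.340).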

How the results depend on the processing

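Of 14 called changes among the 10 genes (50 in all, over 5 comparisons), 8 were called under each of the 24 alternatives that gave a value: those of Dusp6 and Dusp1 in Tc17, in the difference of genotype changes and between cell types in WT, that of Dusp2 in Tc17 and that of Dusp4 in WT. The other 6 were lost under at least 1, as given beside them, and 0 of the 14 turned sign. Of 36 changes not called, 21 were called under no alternative and 15 were called under at least 1. Counted separately, 15 of the 36 turned sign somewhere. Dusp4 was called lower in Tc17 cells without STAT3 with cyclic loess (-0.32, adjusted p = 0.0296, limma). Where 1 sample was left out, genes called ranged from 943 to 3191 in Tc17 (2473 with all samples), 244 to 1555 in the difference (676), 1100 to 3232 in Tc17 over Tc1 in WT (2468), 65 to 247 in Tc17 over Tc1 in STAT3-/- (204) and 4 to 7 in Tc1 (6). Over the same settings 3 to 5, 2 to 3, 3 to 7, 0 to 1 and 0 of the 10 genes were called. The low counts in Tc17 came without Tc17 STAT3-/- sample 2 (943) and sample 1 (1005), and the high one without Tc17 WT sample 1. A lone sample was taken to vary like the other groups. Without the technical arrays 17 genes were called in Tc1, 1246 in the difference and 398 in Tc17 over Tc1 in STAT3-/-, and without the technical Tc17 WT array 14 in Tc1. Tc1 calls were 16 with the technical arrays joined to sample 1, 13 with them as samples and 20 with array kind as a term. With the sample as a random block, calls were 6274 in Tc17 (8 of the 10 genes), 266 in Tc1 and 4796 in the difference (6 of the 10). They were 6101 in WT and 1592 in STAT3-/- (4 of the 10). The estimated correlation was -0.73, so arrays of 1 sample were less alike than other arrays of a group. That setting is a poor model of repeat arrays, though it is counted among the alternatives. The difference had 384 calls with no brightness limit, and WT 1479 with only the groups compared in the fit. Same-numbered samples deviated together with correlations of 0.10 to 0.46, 2 of them under the limit of 0.1 before rounding. Between the genotypes, which shared a culture, the correlation was 0.46 in Tc1 and 0.10 in Tc17. No label says that a number marks a shared culture or day, so same-numbered samples were not taken as pairs. A replicate block gave 3056 calls in Tc17 (5 of the 10 genes, Dusp5 added with adjusted p = 0.0374, limma), 15 in Tc1, 1018 in the difference (3 of the 10) and 3039 in WT (6 of the 10). With only the groups compared the difference could not be fitted, and with the limit at 6 Spry1 was not tested. The causes of these changes were not tested.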
